A study of Homo sapiens with 10 samples.

Results

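The zinc finger genes of chromosome 19q11 to q13.13 were examined in wild-type (WT) and ZNF274 knockout (KO) cells. Members were all genes listed in both count tables with a zinc finger symbol (ZNF, ZFP, ZSCAN, ZKSCAN, ZIM, ZIK, RBAK or HKR) and a start from base 24600000 to base 39000000 of chromosome 19 (hg19). This gave 38 genes of the 24050 genes listed in either table, and 38 of the 538 zinc finger genes listed in both. All 38 passed the filter on low counts in both cell types. The rule uses symbol and position.

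ZNF274 is a KRAB zinc finger protein that carries a SCAN domain and binds near the 3′ ends of other KRAB zinc finger genes. KRAB zinc finger proteins (KZFPs) bind DNA through arrays of C2H2 fingers, and their KRAB domain recruits TRIM28 and, through it, the methyltransferase SETDB1, which deposits the repressive mark H3K9me3. Their genes lie in tandem clusters that arose by duplication, many of them on chromosome 19, and much of this sequence is itself packed into heterochromatin.

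Polyadenylated RNA was sequenced from 2 kinds of cells. HEK293T is an established line of human embryonic kidney origin, with 3 WT libraries (S15, S16 and S17) and 3 KO libraries (S18, S19 and S20). Neural progenitor cell (NPC) cultures were differentiated from H1 human embryonic stem cells through embryoid bodies, in 2 WT (S3, S5) and 2 KO (S1, S2) libraries. The KO was made with Cas9 and a pair of guides that flank ZNF274, followed by puromycin selection and growth from single cells or colonies, and the series' design text speaks of independent WT and KO clones, so that p-values measure the spread between clones and libraries.

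The libraries held 21421013 to 32285876 counts in HEK293T and 18621266 to 23035490 in NPC. ZNF274 itself had 14.6 to 16.7 CPM (counts scaled to a common library size) in WT HEK293T and 23.2 and 25.4 CPM in WT NPC, and no count in any KO library, at least 137-fold and 172-fold lower against a floor of 3 counts per library. KO library S18 stood furthest from its group in HEK293T. Marker levels differed between the WT and KO NPC cultures. The summed level of 12 neural progenitor markers was 3870 to 4980 CPM in WT and 3300 to 3410 CPM in KO, with 8 of the 12 called lower. That sum is mostly NES, which was not called (mean 2630 CPM in WT and 3140 CPM in KO). In contrast, SOX2 fell from a mean of 223 to 16.9 CPM, FABP7 from 284 to 2.76 CPM, LHX2 from 24.2 to 0.265 CPM and MAP2 from 1040 to 147 CPM. HES5 was at 0 in both KO libraries, but its WT mean was only 0.244 CPM and it was not called. The 10 mesenchymal markers summed to 1320 to 2180 CPM in WT and 5260 to 6070 CPM in KO, with 5 of the 10 called higher. The 3 listed pluripotency markers summed to 138 to 161 CPM in WT and 60.1 to 64.4 CPM in KO, with 1 called lower. The part of these shifts in the NPC results below was not tested, and in a bulk culture a change in the share of a cell type cannot be told apart from a change in RNA per cell. In HEK293T the same lists summed to at most 111 CPM (neural), 89.8 CPM (mesenchymal) and 0.437 CPM (pluripotent) in any library, and no marker was called. A list of HEK293-line markers reached only 1.08 CPM there, so the line was not identified by its markers.

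Of the 38 genes, 36 had a protein in the annotation and 31 of these carried a KRAB A box found by a profile search. The 5 proteins without one were ZNF536, ZNF507, ZNF146, ZNF260 and ZNF345. ZNF807P and ZNF781 were annotated as pseudogenes. C2H2 fingers numbered from 6 in ZNF793 to 29 in ZNF850. Over 630 protein pairs the median identity was 37%, and the closest pair was ZNF585A and ZNF585B, with 94.5% identity (727 of 769 aligned residues), so that uniquely mapped reads can leave part of both genes uncounted. The next pair, ZFP82 and ZFP30, shared 75.0%.

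The genes fell into 4 blocks where neighbours started more than 1 Mb apart. ZNF536 and ZNF507 stood alone at 30.7 and 32.8 Mb. A block of 6 genes lay at 35.0 to 35.5 Mb, and the largest block held 30 genes between 36.7 and 38.3 Mb (chr19:36673178-38307940, hg19). This split was chosen after the data were seen.

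Promoter windows, 250 bases before to 50 after the annotated start, are shown for the genes on which the comparisons below turn: the pair with the highest KO effects in HEK293T (ZNF850 and ZNF793), one that rose in NPC with a called difference between cell types (ZNF382), and windows that each hold 2 divergent starts. In the window of ZNF568 the start of ZNF829 lies 41 bases upstream on the opposite strand, and in the window of ZNF540 the start of ZNF571 lies 84 bases upstream on the opposite strand. All are from hg19, read 5′ to 3′ on the named gene's strand, with CpG dinucleotides in capitals. ZNF850 is on the minus strand at chr19:37263660-37263959, and the others are on the plus strand, ZNF793 at chr19:37997591-37997890, ZNF382 at chr19:37095965-37096264, ZNF568 at chr19:37406984-37407283 and ZNF540 at chr19:38085527-38085826.
ZNF850: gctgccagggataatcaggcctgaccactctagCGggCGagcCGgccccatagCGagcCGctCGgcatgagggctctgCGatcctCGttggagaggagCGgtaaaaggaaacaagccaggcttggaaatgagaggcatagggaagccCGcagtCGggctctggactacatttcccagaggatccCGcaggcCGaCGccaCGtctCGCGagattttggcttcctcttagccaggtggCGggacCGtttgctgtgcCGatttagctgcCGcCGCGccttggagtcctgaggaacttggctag
ZNF793: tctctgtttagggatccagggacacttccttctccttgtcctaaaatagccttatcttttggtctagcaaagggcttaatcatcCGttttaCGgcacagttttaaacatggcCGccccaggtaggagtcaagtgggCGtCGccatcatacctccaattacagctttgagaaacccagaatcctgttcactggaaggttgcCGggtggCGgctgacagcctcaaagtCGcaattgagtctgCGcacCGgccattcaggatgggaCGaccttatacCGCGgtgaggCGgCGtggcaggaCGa
ZNF382: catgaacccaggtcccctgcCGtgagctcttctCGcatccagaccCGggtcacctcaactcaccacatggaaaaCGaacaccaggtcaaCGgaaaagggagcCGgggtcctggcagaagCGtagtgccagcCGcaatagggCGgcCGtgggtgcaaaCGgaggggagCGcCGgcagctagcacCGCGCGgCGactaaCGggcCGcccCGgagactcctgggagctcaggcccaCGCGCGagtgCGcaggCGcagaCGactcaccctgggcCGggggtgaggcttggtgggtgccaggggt
ZNF568: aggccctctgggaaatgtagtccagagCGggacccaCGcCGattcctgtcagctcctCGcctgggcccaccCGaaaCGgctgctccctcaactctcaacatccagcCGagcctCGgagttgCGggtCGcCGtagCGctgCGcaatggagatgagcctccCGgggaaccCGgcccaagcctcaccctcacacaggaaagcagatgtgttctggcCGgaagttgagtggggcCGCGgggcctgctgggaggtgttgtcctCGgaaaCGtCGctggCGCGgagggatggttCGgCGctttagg
ZNF540: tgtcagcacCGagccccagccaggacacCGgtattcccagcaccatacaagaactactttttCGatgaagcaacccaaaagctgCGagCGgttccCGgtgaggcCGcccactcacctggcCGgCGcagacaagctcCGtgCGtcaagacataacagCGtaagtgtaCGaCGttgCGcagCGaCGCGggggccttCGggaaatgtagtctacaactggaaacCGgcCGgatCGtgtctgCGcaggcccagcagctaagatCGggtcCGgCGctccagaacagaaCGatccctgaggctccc

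CpG dinucleotides numbered 23 in the window of ZNF850, 16 in ZNF793, 27 in ZNF382, 25 in ZNF568 and 27 in ZNF540. Over all 38 genes the median was 23.5 CpG per window (range 2 to 37), against 23 over 20175 protein-coding promoters of the same length. The letters TATAAA, searched on both strands, were in 0 of the 38 windows and in 9.77% of all promoters. GGGCGG was in 16 of the 38 (42.1%) and in 60.9% of all promoters, and CCGGAAG in 10 of the 38 (26.3%) and in 14.0%. These shares are descriptions of letters and were not tested.

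In WT cells most of the genes were expressed at low levels. Per kilobase of exon the median gene had 0.757 CPM in WT HEK293T and 0.939 CPM in WT NPC. ZNF146, a protein made almost wholly of fingers, was the highest in both, at 42.7 CPM per kb in HEK293T and 29.7 in NPC. ZNF302 followed in HEK293T (6.66) and ZNF260, another finger protein without KRAB, in NPC (9.57). At the other end, the pseudogene ZNF807P had 1 to 8 counts per HEK293T library and 5, 4, 3 and 3 counts in the NPC libraries (WT, then KO), too few to detect a difference at this depth.

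Which of the genes changed when ZNF274 was removed was asked first in HEK293T. In this line 3 genes rose in the KO, ZNF850, ZNF829 and ZNF793, all KZFPs of the largest block, and 0 fell (edgeR's quasi-likelihood test, adjusted p below 0.05 by Benjamini-Hochberg over 19018 genes, and fold change above 2). Over all genes tested, 0.478% were called higher and 0.0105% lower by the same rule. At an unadjusted p below 0.05, 15 of the 38 were higher and 2 lower, where 4.43% of all genes were higher and 2.69% lower. DESeq2 called 6 higher and 0 lower, where it called 0.891% of 17163 genes higher.

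ZNF793, the KZFP with the fewest fingers of the set, had 0.601, 0.619 and 0.407 CPM in the WT HEK293T libraries and 4.89, 10.8 and 5.38 CPM in the KO libraries. The lowest KO library lay above the highest WT library, and S19 was the highest of the 3. The log2 fold change (FC) was 3.69 ± 0.40 (SE), a 12.9-fold rise (edgeR's quasi-likelihood test, Benjamini-Hochberg adjusted p = 0.00102).

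ZNF850, which has the longest finger array, had 2.60, 2.06 and 2.88 CPM in WT and 12.6, 14.2 and 15.1 CPM in KO HEK293T. The groups were separated by more than their own spread, with a log2 FC of 2.47 ± 0.23 (5.54-fold; edgeR's quasi-likelihood test, Benjamini-Hochberg adjusted p = 0.000356). Both genes stayed called under each alternative, including without any one library.

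ZNF829 rose from 5.61, 4.71 and 4.54 CPM to 10.6, 10.9 and 14.0 CPM (log2 FC 1.26 ± 0.22; edgeR's quasi-likelihood test, Benjamini-Hochberg adjusted p = 0.0310). The groups did not overlap, but the call was lost when any one of S15, S16, S17, S19 or S20 was left out. Its divergent partner ZNF568, whose mouse counterpart represses a placental Igf2 transcript, had 5.31, 5.23 and 5.45 CPM in WT and 8.04, 10.4 and 12.1 CPM in KO, with a log2 FC of 0.93 ± 0.22 that was not called (edgeR's quasi-likelihood test, Benjamini-Hochberg adjusted p = 0.171).

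**Figure D1:**
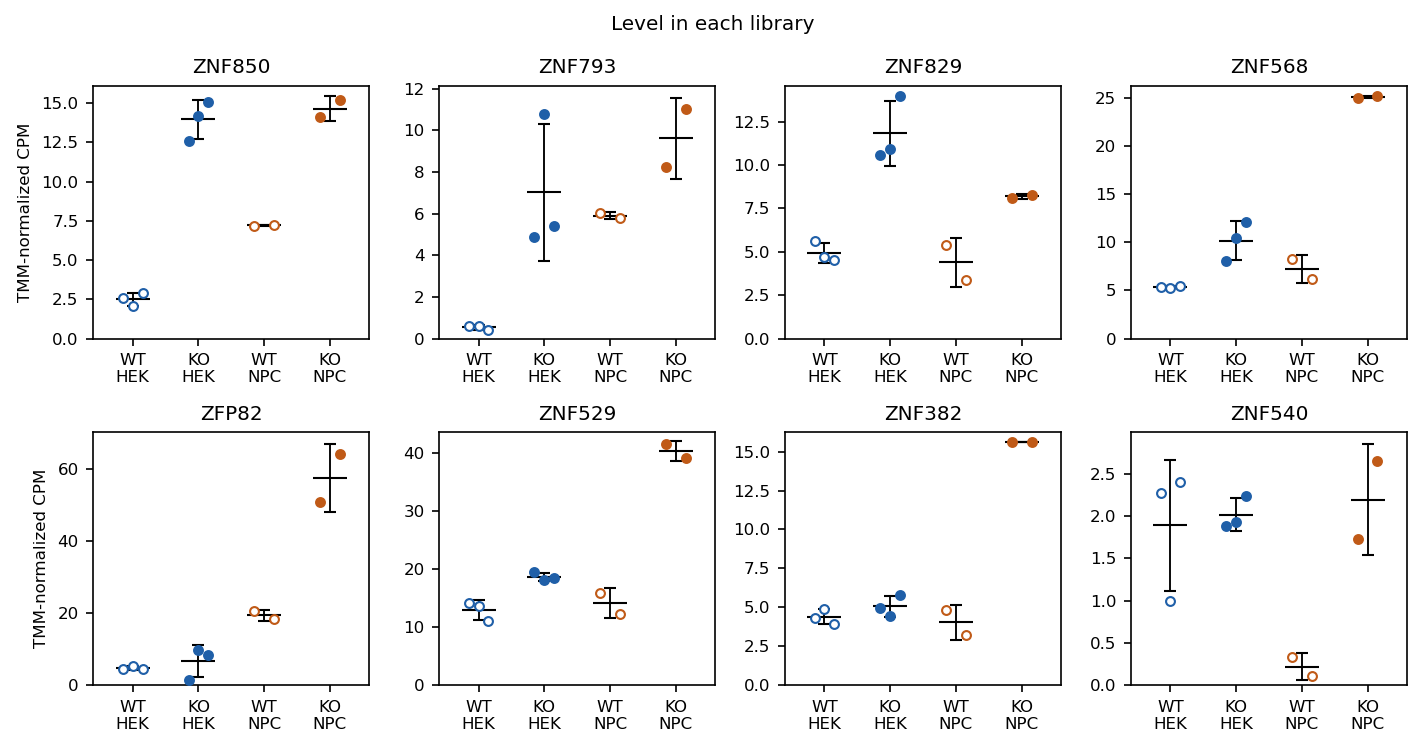
Level of 8 zinc finger genes in each library, as TMM-normalized CPM (y axis, from 0, a scale of its own per gene), by group (x axis; HEK stands for HEK293T). Open points are WT and filled points KO libraries, bars are the mean ± SD over 3 HEK293T or 2 NPC libraries. The KO HEK293T libraries of ZNF850 (12.6 to 15.1 CPM) lie at the level of KO NPC (14.1 and 15.2 CPM), while the WT and KO points of ZFP82, ZNF382 and ZNF540 overlap in HEK293T and are separate in NPC.

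Several other genes of the largest block lay above WT in every KO HEK293T library without reaching the threshold. ZNF875 (formerly HKR1) had 13.8, 9.08 and 10.9 CPM in WT and 29.2, 17.7 and 23.2 CPM in KO (log2 FC 1.05 ± 0.23). ZNF585A had 4.01, 4.13 and 4.51 CPM in WT and 10.7, 7.43 and 7.77 CPM in KO (1.03 ± 0.24), and its near-identical neighbour ZNF585B 6.54, 5.09 and 5.42 CPM and 8.82, 8.44 and 10.7 CPM (0.71 ± 0.22). In all, every KO library exceeded every WT library for 19 of the 38 genes, where 7.16% of all genes did so, and the reverse held for 3 of the 38 (ZNF507, ZNF599 and ZNF146), where 5.27% did so. ZNF875, ZNF585A and ZNF461 were the 3 genes that DESeq2 called in addition; naming ZNF461 (log2 FC 1.05 ± 0.23) followed from its DESeq2 call.

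The sign was above 0 for 29 of the 38 genes, against 51.4% of all genes, and the median log2 FC was 0.39, against 0.01 over all genes. In the largest block 26 of 30 were above 0, with a median of 0.53. The smaller block of 6 genes had a median of -0.03, from -0.62 to 0.19, with 3 above 0. Among the proteins without KRAB, ZNF507 had a log2 FC of -0.37 ± 0.16 and ZNF146 of -0.33 ± 0.14, both with an unadjusted p below 0.05 and neither called. ZNF146 had 169, 187 and 174 CPM in WT and 121, 151 and 148 CPM in KO, every KO library being below every WT library. ZNF345 (-0.16 ± 0.29) and ZNF536 (-0.07 ± 0.41), a repressor best known in the brain, lay within their errors of 0, and ZNF260 had a log2 FC of 0.35 ± 0.18.

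Within the KO HEK293T group some genes differed more between libraries than between groups. ZFP82 had 4.37, 5.23 and 4.44 CPM in WT but 1.53, 9.80 and 8.37 CPM in KO, so that library S18 lay below all WT libraries and the other KO libraries above them. Its log2 FC of 0.50 ± 0.50 became 0.96 without S18, and was not called there either (edgeR's quasi-likelihood test, Benjamini-Hochberg adjusted p = 0.123). ZNF570 showed the same order, with 2.71 CPM in S18 against 5.80 and 6.35 CPM in S19 and S20, and 3.49 to 4.30 CPM in WT.

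The other genes at these positions were examined in the same way. Of the 80 other protein-coding genes of the interval, 72 were tested in HEK293T, where 0 were called (0 at an unadjusted p below 0.05 higher and 25 lower) and the median log2 FC was -0.32. All 3 KO libraries lay below all WT libraries for 25 of the 72, and above for 0. The neighbouring stretch up to base 52800000 held 256 tested protein-coding genes other than zinc finger genes, with a median of -0.34, while the 388 before base 19500000 had -0.15 and the 62 from base 52800000 on were centred on 0. The cause of this lower level was not tested, and no zinc finger value was corrected for it.

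**Figure D2:**
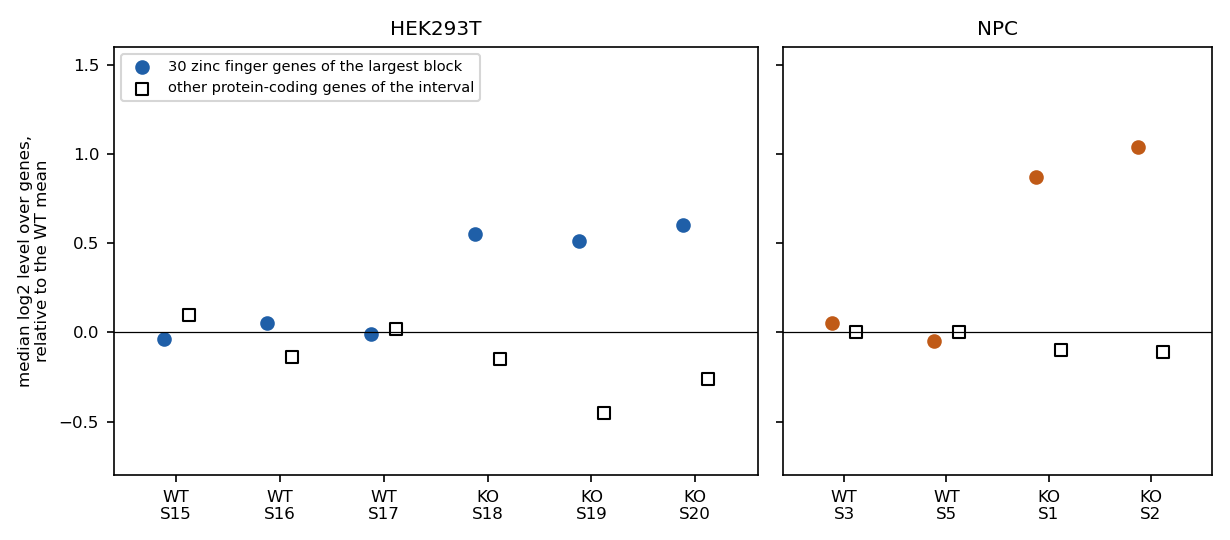
Median log2 level over genes in each library relative to the WT mean of its cell type (y axis, log2 of CPM + 0.5), for the 30 zinc finger genes of the largest block (filled circles) and 71 other protein-coding genes of the interval (open squares). The KO libraries sit at 0.51 to 0.60 (HEK293T) and 0.87 and 1.04 (NPC) for the zinc finger genes, and between -0.45 and -0.10 for the other genes.

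In NPC more of the genes rose in the KO. Of the 38, 15 were called higher (39.5%) and 0 lower, where 8.45% of all genes tested were called higher and 8.36% lower (edgeR's quasi-likelihood test, Benjamini-Hochberg over 20577 genes). The 15 were ZFP82, ZNF566, ZNF260, ZNF529, ZNF382, ZNF850, ZNF790, ZNF568, ZNF383, ZNF527, ZNF570, ZNF540, ZNF571, ZFP30 and ZNF781, and all lay in the largest block. With the adjusted p alone 19 were higher, where 14.9% of all genes were. The count depended on single libraries, being 4 without KO library S2, 11 without KO library S1, 17 without WT library S3 and 15 without WT library S5. The 4 that remained without S2 were ZFP82, ZNF529, ZNF382 and ZNF568, and these 4 were called under each alternative. ZNF850, ZNF383, ZNF527, ZNF571 and ZNF781 lost their call without S1, ZFP30 without S3 and ZNF527 without S5.

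ZFP82, a KZFP, had 20.5 and 18.3 CPM in WT NPC and 50.9 and 64.1 CPM in KO NPC (log2 FC 1.56 ± 0.17; edgeR's quasi-likelihood test, Benjamini-Hochberg adjusted p = 0.000785). ZNF529 had 15.9 and 12.3 CPM in WT and 41.4 and 39 CPM in KO (1.51 ± 0.18). In both the lowest KO value was more than the highest WT value, and ZNF529 shares 24% of its exonic bases with genes on the opposite strand, among them ZNF529-AS1, which was called higher as well (log2 FC 2.11).

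ZNF382, a KZFP reported as a repressor that tumours silence, had 4.83 and 3.22 CPM in WT and 15.6 CPM in each KO library (log2 FC 1.95 ± 0.26; edgeR's quasi-likelihood test, Benjamini-Hochberg adjusted p = 0.00208). ZNF568 had 8.24 and 6.19 CPM in WT and 25 and 25.2 CPM in KO (1.80 ± 0.21). ZNF829, on the other side of their shared window, had 5.4 and 3.38 CPM in WT and 8.10 and 8.29 CPM in KO, and its log2 FC of 0.90 ± 0.30 was not called (edgeR's quasi-likelihood test, Benjamini-Hochberg adjusted p = 0.0641).

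The highest fitted change in NPC was that of ZNF540, a KZFP whose start faces that of ZNF571. It had 0.331 and 0.102 CPM in WT NPC, from 7 and 2 counts, and 1.73 and 2.66 CPM in KO, from 35 and 59 counts (log2 FC 3.29 ± 0.65; edgeR's quasi-likelihood test, Benjamini-Hochberg adjusted p = 0.00984). Its log2 FC was 4.35 without WT library S3 and 2.70 without S5, and without KO library S2 it was 2.93 and not called (edgeR's quasi-likelihood test, Benjamini-Hochberg adjusted p = 0.0781). The KO level was near that of HEK293T, where ZNF540 had 2.27, 0.998 and 2.41 CPM in WT and 1.88, 1.93 and 2.24 CPM in KO. ZNF571 had 1.28 and 1.84 CPM in WT and 3.80 and 4.23 CPM in KO NPC (1.36 ± 0.36).

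ZNF790 rose from 2.79 and 5.17 CPM to 11.5 and 14.8 CPM (1.73 ± 0.34), and its antisense gene ZNF790-AS1 was not called in NPC. ZNF260 rose from 53.3 CPM in each WT library to 102 and 117 CPM (1.04 ± 0.12), the only protein without KRAB among those called, and stayed the second most abundant gene of the set per kilobase, at 19.6 CPM per kb. ZNF566 rose from 11.6 and 11.9 CPM to 24.1 and 28.5 CPM (1.16 ± 0.18). The pseudogene ZNF781 had 1.66 and 0.563 CPM in WT and 3.80 and 4.95 CPM in KO (1.97 ± 0.52). Its log2 FC was 2.95 without WT library S3 and 1.39 without S5, and the call was lost without S1, without S2 and in one fit of all 10 libraries. Of ZNF781, 97.2% of the exonic bases also belong to a long noncoding RNA entry of the same symbol, which was in neither table.

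The other called genes rose by 1.01 to 1.29 on the log2 scale. ZFP30 went from 15.1 and 19.1 CPM to 30.4 and 40.5 CPM, and ZNF570 from 6.01 and 4.25 CPM to 10.9 and 14.3 CPM. ZNF383 went from 2.93 and 4.30 CPM to 7.51 and 9.73 CPM, ZNF527 from 4.92 and 4.61 CPM to 11.2 and 8.02 CPM, and ZNF850 from 7.20 and 7.22 CPM to 14.1 and 15.2 CPM. For none of these 5 genes did WT and KO overlap, but ZNF527 lost its call under 6 of 11 alternatives and lay near the threshold (log2 FC 1.01 ± 0.27). ZNF569, just outside it with a log2 FC of just under 1, is named for that position alone.

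The closest protein pair was followed separately. ZNF585A had 5.25 and 4.04 CPM in WT and 8.49 and 6.58 CPM in KO NPC (log2 FC 0.69 ± 0.28), and ZNF585B 5.16 and 4.35 CPM and 8.94 and 9.19 CPM (0.93 ± 0.25). ZNF875 had 26.9 and 27.0 CPM in WT and 36.7 and 40.9 CPM in KO (0.52 ± 0.14). ZNF585B and ZNF875 passed the adjusted p but not the fold change.

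The called genes were not spread over all blocks, although the difference between blocks was not tested. In the largest block 29 of 30 genes had a log2 FC above 0, the exception being ZFP14 (-0.48 ± 0.34, named as that exception), and the median was 1.02. In the block of 6 genes at 35 Mb, 0 were called, 1 had an unadjusted p below 0.05 (ZNF792, lower, log2 FC -0.81 ± 0.34), and the median was -0.17. ZNF302 in that block had 32.2 and 25 CPM in WT and 27.7 and 29.7 CPM in KO, with overlapping groups. Of the single genes, ZNF507 had a log2 FC of -0.07 ± 0.13 and ZNF536 of -0.36 ± 0.41, the latter with 8.05 and 20.3 CPM in its WT libraries. Over all 38 the median was 0.89, against -0.02 over all genes, and 31 were above 0, against 48.8% of all genes. Both KO libraries lay above both WT libraries for 28 of the 38, where 33.3% of all genes did so, and below for 4, where 33.8% did so.

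The summed level of the 38 genes was 485 to 530 CPM in WT and 559 to 590 CPM in KO HEK293T, and 496 and 507 CPM in WT and 767 and 843 CPM in KO NPC. The WT sums of the cell types thus lay within the same range, and the KO sums did not overlap. These sums lean on 2 genes without KRAB. ZNF146 had means of 177 CPM in WT and 140 CPM in KO HEK293T, and 123 and 147 CPM in WT and KO NPC. ZNF260 had 25.2 and 32.1 CPM in HEK293T, and 53.3 and 109 CPM in NPC.

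Among the 116 other genes of the interval in NPC, of which 112 were tested, 8 were called higher (7.14%) and 9 lower, close to the 8.45% and 8.36% of all genes, and the median log2 FC was -0.12. The 13 other genes inside the largest block were long noncoding RNAs and pseudogenes, and 0 of them coded for protein. In HEK293T 3 of 12 tested were called higher (LINC00665, ENSG00000267260 and ZNF790-AS1), where 0.478% of all genes were, and the median log2 FC was 0.98. In NPC 2 of 13 (15.4%) were called higher (ENSG00000267260 and ZNF529-AS1), where 8.45% of all genes were, and the median was 0.97. Both lost their call without KO library S2. ENSG00000267260, a long noncoding RNA whose start lies next to that of ZNF850 on the opposite strand, rose in both, by 2.72 and 2.55 on the log2 scale. In NPC it had 2.27 and 1.48 CPM in WT and 6.52 and 15.5 CPM in KO, the higher value being that of S2.

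Of the 38 genes, 18 share exonic bases with a gene on the opposite strand and 10 with one on the same strand. The libraries were made with a stranded kit, and whether counting used the strand is not given in the sources used here, so reads of such partners may not be told apart. ZNF850 and ZNF829 share no exonic base with another gene, whereas 8.21% of those of ZNF793 lie opposite ZNF793-AS1 and another gene.

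Whether the KO effect differed between the cell types was tested directly, in a fit over all 10 libraries. It was called larger in NPC for ZNF566, ZNF382, ZNF790 and ZNF540 and larger in HEK293T for ZNF850 and ZNF793, where 6.01% and 6.22% of 19255 genes were called in these directions (edgeR's quasi-likelihood test of the interaction, Benjamini-Hochberg). The 2 of 38 larger in HEK293T are no more than the share of all genes. With the adjusted p alone 6 of the 38 were larger in NPC, where 7.74% of all genes were, and 2 in HEK293T, where 7.34% were. The median difference of log2 FCs, NPC minus HEK293T, was 0.33 for the 38 and 0.33 for 77 other protein-coding genes of the interval. Of these 77, 7 were larger in NPC by the adjusted p and 1 in HEK293T. For 272 other protein-coding genes of the neighbouring stretch described above the median was 0.56, with 47 larger in NPC and 13 in HEK293T. The part of position in these differences was not tested. For ZNF793 the difference of log2 FCs, NPC minus HEK293T, was -2.96 ± 0.54 (edgeR's quasi-likelihood test, Benjamini-Hochberg adjusted p = 0.00329). CPM was normalized within each cell type, so levels set side by side across cell types are approximate. In NPC ZNF793 had 6.01 and 5.78 CPM in WT and 8.25 and 11 CPM in KO, so that the KO HEK293T libraries (4.89 to 10.8 CPM) overlapped the NPC libraries of both genotypes.

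For ZNF850 the difference was -1.43 ± 0.32 (edgeR's quasi-likelihood test, Benjamini-Hochberg adjusted p = 0.00984), and the KO levels of the cell types overlapped, at 12.6 to 15.1 CPM in HEK293T and 14.1 and 15.2 CPM in NPC. For ZNF382 it was 1.76 ± 0.37 (edgeR's quasi-likelihood test, Benjamini-Hochberg adjusted p = 0.00743): its WT levels overlapped, at 3.93 to 4.89 CPM in HEK293T and 3.22 and 4.83 CPM in NPC, and its KO levels were 4.45 to 5.79 CPM and 15.6 CPM. For ZNF540 it was 3.22 ± 0.75, for ZNF790 1.34 ± 0.40 and for ZNF566 1.01 ± 0.26. The calls of ZNF382 and ZNF793 held under each alternative, while those of ZNF566 and ZNF790 were each lost under 9 of 16. The call of ZNF540 was lost without S2 or S5, with a difference of 2.62 to 4.29 when 1 library was left out, and that of ZNF850 was lost without S1.

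**Figure D3:**
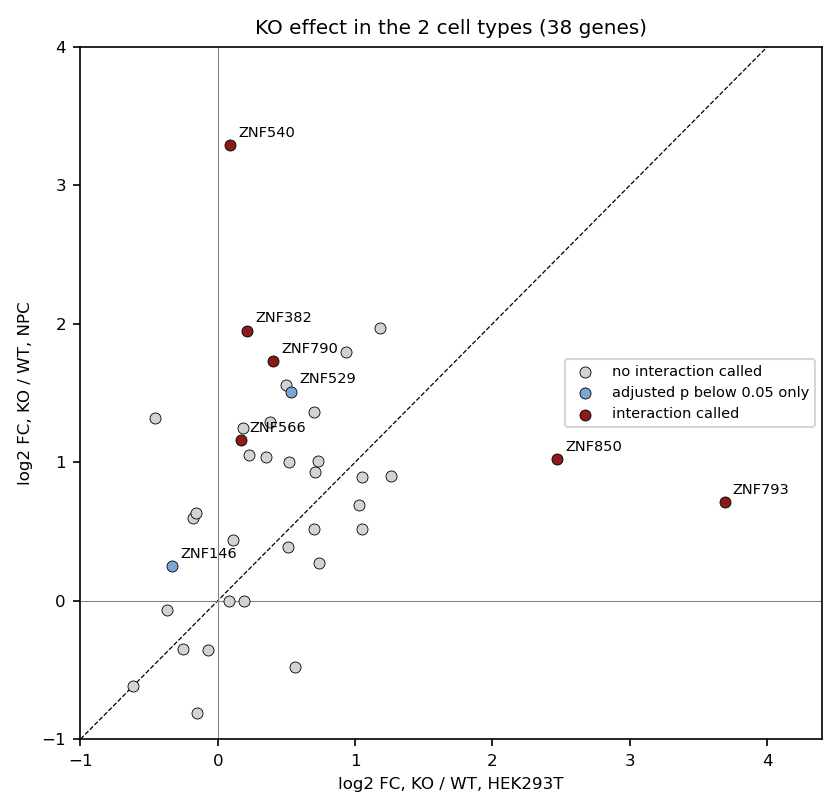
Log2 FC between KO and WT in HEK293T (x axis) and NPC (y axis) for the 38 zinc finger genes, one point per gene, with equal effects on the dashed line. Red points were called by the interaction and blue points passed its adjusted p only; ZNF793 and ZNF850 lie far to the right of the line, and ZNF540, ZNF382, ZNF790 and ZNF566 above it.

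Across the 38 genes the log2 FCs of the cell types had a Pearson r of 0.21 and a Spearman rho of 0.32, and within the largest block r was -0.11 and rho -0.14 (n = 30 genes). Genes are not independent replicates, and these values are descriptions. The number of fingers had an r of 0.15 with the log2 FC in HEK293T and of 0.12 in NPC (n = 36 genes with a protein). By protein type, 27 of the 31 genes with a KRAB A box were above 0 in each cell type, with medians of 0.51 in HEK293T and 0.93 in NPC. The 5 without had medians of -0.16 and 0.25. Protein type is mixed with position here, because ZNF536 and ZNF507 of these 5 stood alone outside the blocks. The proteins of the block at 35 Mb all carry a KRAB A box, and that block had medians of -0.03 and -0.17.

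The divergent pairs can be read side by side. ZNF829 and ZNF568 had log2 FCs of 1.26 and 0.93 in HEK293T and 0.90 and 1.80 in NPC. ZNF571 and ZNF540 had 0.70 and 0.09 in HEK293T and 1.36 and 3.29 in NPC. ZNF565 and ZNF146, whose starts lie 441 bases apart, had -0.18 and -0.33 in HEK293T and 0.60 and 0.25 in NPC.

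The zinc finger genes of the rest of chromosome 19 were counted by the same rule. Before base 19500000, 2 of 40 tested genes were called higher in HEK293T and 3 of 44 in NPC, with median log2 FCs of 0.34 and 0.04. Between bases 19500000 and 24600000 the counts were 16 of 32 and 3 of 34 (medians 1.88 and 0.03). Between bases 39000000 and 52800000 they were 1 of 43 and 3 of 43 (medians 0.40 and 0.09), with 1 called lower in NPC. From base 52800000 on, 19 of 84 were called higher in HEK293T, where the 1 called lower was ZNF274 itself, and 7 of 96 were higher and 4 lower in NPC (medians 0.77 and 0.15). In HEK293T these 4 stretches had 5%, 50%, 2.33% and 22.6% of their tested genes called higher, beside 0.478% of all genes, and in NPC 6.82%, 8.82%, 6.98% and 7.29%, beside 8.45% of all genes. The differences between these shares were not tested.

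The partners through which KZFPs act were followed as well, 24 of a list of 25 being listed in the tables. In HEK293T 0 of 24 were called (1 at an unadjusted p below 0.05, lower). TRIM28, the corepressor that binds the KRAB domain, had 1030, 813 and 992 CPM in WT HEK293T and 313, 353 and 846 CPM in KO, so that S18 and S19 lay below and S20 within the WT range (log2 FC -0.90; edgeR's quasi-likelihood test, Benjamini-Hochberg adjusted p = 0.537). Without S20 TRIM28 was called lower (log2 FC -1.5; edgeR's quasi-likelihood test, Benjamini-Hochberg adjusted p = 0.00173), and over the other alternatives its adjusted p was 0.16 to 1. In NPC 1 of the 24 was called higher (MORC3, 1.15) and 1 lower (TRIM24, -1.22), below the 8.45% and 8.36% of all genes called in these directions, and TRIM24 lost its call without S1, S2 or S5. With the adjusted p alone 12 of the 24 were lower, where 13.7% of all genes were, among them TRIM28 and SETDB1, each at -0.61, and 3 were higher, where 14.9% were (MORC3, HDAC1 at 0.67 and MPHOSPH8 at 0.51). The part of these levels in the zinc finger results was not tested.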

How the data were processed

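Per the labels and the study's methods, total RNA was made into stranded mRNA libraries, and the authors used HISAT2 for alignment on hg19 and featureCounts for the number of uniquely mapped reads in each gene (versions not given in the sources used here). The deposited values are raw counts, in one table per cell type (22750 and 20965 genes). Identifiers were mapped with GENCODE release 44 lifted to hg19 (23273 of 24050 found). The members and gene lists were chosen with earlier results of these data known. Genes whose total count was under the number of libraries (6 or 4) were dropped, and WT and KO were compared with edgeR 4.0.16 (TMM, quasi-likelihood test) in R 4.3.3, within each table and, for the interaction, over all 10 libraries. Calls needed a Benjamini-Hochberg adjusted p below 0.05 over all genes tested and a fold change above 2. CPM values are TMM-normalized within a table, which centres most genes. The study used voom, run here as an alternative (limma 3.58.1) beside DESeq2 1.42.0, its size factors, library size alone, other filters, no fold-change threshold, one fit of all libraries, and leaving out each library. The scripts were tested on simulated counts. KRAB A boxes were sought with HMMER 3.4 (E-value below 1e-05) in translated transcripts, and promoter windows read from the hg19 genome. Named genes were those called, the 5 highest in WT, those without KRAB, the closest protein pair and any at or under 3 counts throughout a group; others are named with the reason. No 2 libraries of a group agreed within counting error.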

Additional observations from a re-analysis of the deposited data

Results flagged for a closer look

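For 8 genes the KO effect differed between NPC and HEK293T by the interaction (edgeR's quasi-likelihood test, Benjamini-Hochberg adjusted p below 0.05). Of the 38, 6 were larger in NPC and 2 in HEK293T, where 7.74% and 7.34% of all genes were, so the count larger in HEK293T was not above that of all genes. The difference of log2 FCs, NPC minus HEK293T, was 3.22 for ZNF540, 1.76 for ZNF382, 1.34 for ZNF790, 1.01 for ZNF566, 0.99 for ZNF529 and 0.61 for ZNF146, and -2.96 for ZNF793 and -1.43 for ZNF850. ZNF529 and ZNF146 fell short of a 2-fold difference. ZNF146 was lower in KO than in WT in all HEK293T libraries and higher in both NPC libraries. Neither change was called (log2 FC -0.33 and 0.25). The other protein-coding genes of the interval had medians of -0.32 in HEK293T and -0.12 in NPC. The median difference, NPC minus HEK293T, was 0.33 for the 38 and 0.33 for them. In HEK293T 25 of the 72 tested also had every KO library below every WT library.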

How the results depend on the processing

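No paired analysis was run, because the library titles do not say whether any WT and KO libraries belong together. The 15 genes called higher in NPC were 11 with library size alone (where the median of all genes moved to -0.13), and 4 to 17 when 1 library was left out. The 3 called higher in HEK293T were 6 with DESeq2 and 2 to 4 with 1 library left out. No alternative gave a lower call in either cell type. The differences between cell types called larger in NPC were 2 with library size alone and 1 to 5 with 1 library left out, and those larger in HEK293T 1 to 2. The median log2 FC in HEK293T was 0.47 with library size alone, 0.34 with voom and 0.31 to 0.47 with 1 library left out; in NPC it was 0.79 with library size alone and 0.80 to 0.90 with 1 library left out. The causes were not tested. Of the named genes' fold changes and differences, 651 kept their direction and call under an alternative, 51 lost the call, 6 gained it and 10 turned, none of the 10 called: ZNF536 in HEK293T (0.03 with library size alone, 0.31 without S19, 0.10 without S16, lowest -0.53) and NPC (0.45 without S5, lowest -0.87), ZNF807P in HEK293T (0.14 without S17, lowest -1.22), ZNF302 in NPC (-0.01 with filterByExpr, -0.10 with library size alone, -0.06 without S2, -0.18 without S5, highest 0.20) and ZNF540 in HEK293T (-0.21 without S16, highest 0.30). Leaving out an NPC library leaves a lone sample, assumed to vary like the others. Depth limited ZNF807P and WT ZNF540 in NPC.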
